A study of Mus musculus with 30 samples.

Results

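Ccl3, Ccl4 and Ccl5 are the mouse genes of 3 inflammatory CC chemokines, and Ccr1 is the gene of a receptor on myeloid cells to which Ccl3 and Ccl5 bind. These 4 genes were chosen by name, and all 4 had a row among the 39676 genes counted. They are described here in bulk RNA of whole subcutaneous melanomas, 10 tumors of each of 3 types, all taken at day 8. Each type grew from a B16-F10 line in female C57BL/6 mice, young adults by the age range in the methods. B16.GFP.gB.luc cells carried an empty retroviral vector with enhanced GFP, B16.IFNα4.gB.luc cells the same kind of vector with murine IFNα4, and B16.IFNα9.gB.luc cells the vector with murine IFNα9. All 3 lines, the control included, also carried membrane-bound glycoprotein B of herpes simplex virus with cyan fluorescent protein, and firefly luciferase with puromycin resistance. The IFNα genes were driven by the vector and not by their own promoters, and each line was a pool of sorted cells. The types are called GFP, IFNα4 and IFNα9 tumors below. The labels call the tumors biological replicates without naming animals, so p-values measure the spread between these tumors.

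CC chemokines are small secreted proteins with an adjacent pair of cysteines near the start of the mature chain. They bind to glycosaminoglycans on cells and matrix and steer leukocytes through receptors that couple to inhibitory G proteins. Ccl3 and Ccl4 (macrophage inflammatory proteins 1α and 1β) are made quickly by activated macrophages, NK cells and T cells, and Ccl5 (RANTES) is made by T cells, NK cells and many cells exposed to interferon. In tumors these ligands are known for drawing in T cells, NK cells, dendritic cells and monocytes.

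The 3 ligand genes lie in the CC chemokine cluster of chromosome 11 and Ccr1 in a receptor cluster of chromosome 9 (GRCm38, GENCODE M21 annotation). Ccl5 is at chr11:83525778-83530518 on the minus strand, Ccl3 at chr11:83647844-83649355 on the minus strand and Ccl4 at chr11:83662584-83664683 on the plus strand, each with 3 exons. Ccl3 and Ccl4 are neighbours with 13228 bases between them and opposite strands, whereas 117325 bases separate Ccl5 from Ccl3. Ccr1 is at chr9:123962124-123968692 on the minus strand with 2 exons. No annotated gene overlapped any of the 4. The coding sequences of Ccl3 and Ccl5 are printed without the stop codon because they show how alike transcripts of this family are that the reads had to tell apart. The capitals mark the 2 adjacent cysteine codons that name the CC family.
Ccl3: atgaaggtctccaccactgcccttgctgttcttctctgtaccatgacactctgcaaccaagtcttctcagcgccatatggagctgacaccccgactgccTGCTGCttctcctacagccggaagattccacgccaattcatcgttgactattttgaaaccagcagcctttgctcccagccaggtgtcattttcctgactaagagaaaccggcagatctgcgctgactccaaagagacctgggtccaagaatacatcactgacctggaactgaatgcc
Ccl5: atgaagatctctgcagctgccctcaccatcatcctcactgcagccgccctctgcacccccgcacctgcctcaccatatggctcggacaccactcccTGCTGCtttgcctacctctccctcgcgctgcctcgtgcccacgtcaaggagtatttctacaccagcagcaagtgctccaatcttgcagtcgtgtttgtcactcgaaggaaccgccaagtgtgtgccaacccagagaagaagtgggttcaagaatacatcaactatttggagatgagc
The coding sequence of Ccl3 spans 276 bases, with the cysteine pair at codons 34 and 35, and that of Ccl5 spans 273 bases, with the pair at codons 33 and 34. In a pairwise alignment 59.9% of the columns were identical, and the longest identical run was 13 bases. Reads were 50 bases long, and none of the 717 different 50-base stretches of Ccl3 transcripts occurred in a transcript of another gene. The same held for the 909 stretches of Ccl5 and the 2784 of Ccr1, so that an exact read of any of these 3 belonged to 1 gene.

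Libraries held between 14598517 and 19788383 counts each. A filter at a mean of 10 counts left 15926 genes to test, all 4 members among them. Reads on Ifna4 were present only in IFNα4 tumors (81 to 188 counts) and reads on Ifna9 only in IFNα9 tumors (55 to 148 counts), with 0 counts of either in the other types. GFP tumor 7 stood apart from the other tumors. It had the lowest TMM scaling factor of all tumors (0.768), the highest summed level of melanocyte genes (24756 CPM) and the lowest level of Ptprc (CD45, the pan-leukocyte phosphatase; 19.5 CPM). It was also the lowest tumor for Ccl3, Ccl5 and Ccr1, and fold changes and ratios that it moves are also given without it.

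Transcripts of all 3 ligands were higher in both kinds of IFNα tumors than in controls, and all 3 were higher in IFNα4 than in IFNα9 tumors. Ccl4 moved most in IFNα4 against GFP tumors and between the IFNα types. It was 13.7-fold higher in IFNα4 than in GFP tumors. In IFNα9 against GFP tumors it was 3.95-fold higher, and its ratios to Ccl3 and Ccl5 did not differ past the test there. Ccr1 moved little, with a 1.53-fold rise in IFNα9 tumors and a 1.31-fold difference in IFNα4 tumors that did not pass the test. Levels are given as CPM, the count of a gene scaled by the size of its library and by TMM, and folds come from the edgeR quasi-likelihood fit of all 30 tumors with Benjamini-Hochberg adjustment over the 15926 genes, where an adjusted p under 0.05 makes a differentially expressed gene (DEG).

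**Figure D1:**
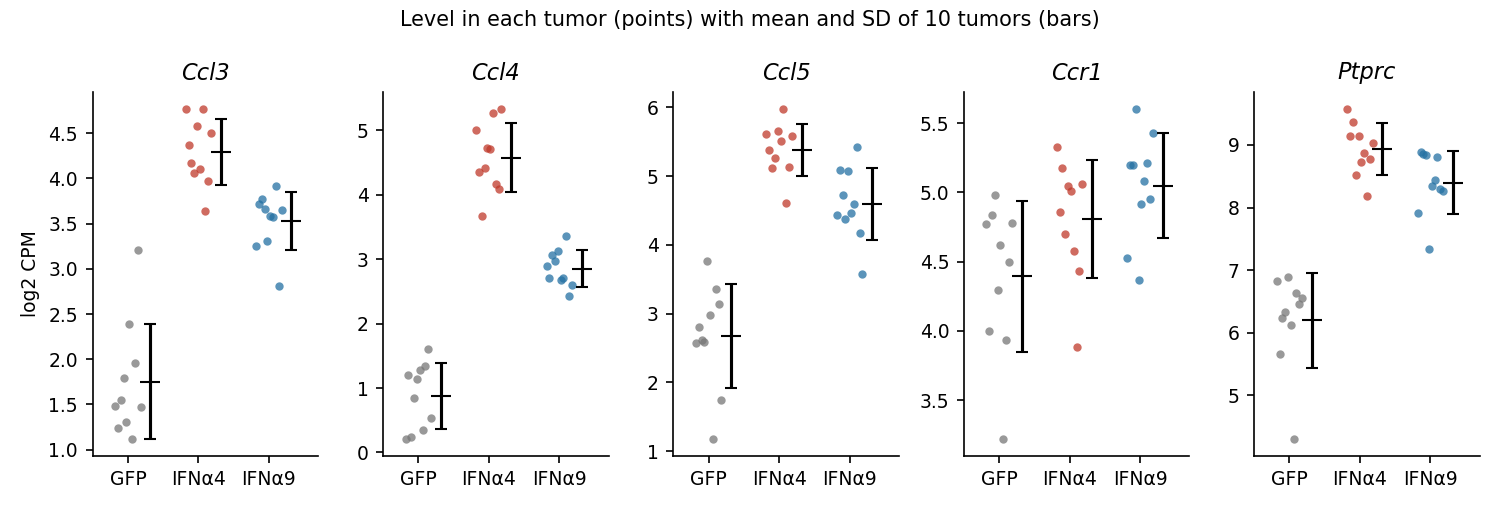
Log2 CPM of Ccl3, Ccl4, Ccl5, Ccr1 and Ptprc in each of the 30 tumors (points), with the mean and SD of the 10 tumors of each type (bars) and a separate vertical scale for each gene. The 3 groups of points separate fully for Ccl4, and those of Ccr1 overlap in every pair of types.

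Ccl4 was the scarcest of the 3 ligands in controls, also per kilobase of exon. In GFP tumors its level ran from 1.04 to 2.94 CPM with a median of 1.88 (mean 1.82 ± 0.663, SD, n = 10). In IFNα4 tumors it ran from 12.6 to 40.3 CPM with a median of 23.5 (25.2 ± 9.25). In IFNα9 tumors it ran from 5.25 to 10.2 CPM with a median of 6.88 (7.24 ± 1.48). No tumor of any type thus overlapped with another type, and the order was GFP, IFNα9, IFNα4 throughout. The log2 fold change was 3.78 ± 0.22 (SE) in IFNα4 against GFP tumors (adjusted p = 7.28e-15 by edgeR) and 1.98 ± 0.21 in IFNα9 against GFP tumors (adjusted p = 6.00e-09). Between the IFNα types it was -1.80 ± 0.20 for IFNα9 minus IFNα4 (adjusted p = 2.19e-07), a 3.48-fold lower level. Ranked by size among all genes tested, Ccl4 had the rise of rank 81 in IFNα4 against GFP tumors and the fall of rank 41 in IFNα9 against IFNα4 tumors.

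Ccl3 had a wider spread in controls, where 1 tumor stood high. In GFP tumors it ran from 2.05 CPM in tumor 7 to 9.13 CPM in tumor 9 with a median of 2.75 (3.62 ± 2.14). In IFNα4 tumors it ran from 12.3 to 27.2 CPM with a median of 19.2 (20.1 ± 5.04). In IFNα9 tumors it ran from 6.90 to 15.0 CPM with a median of 12.1 (11.6 ± 2.34). All IFNα4 tumors were above all GFP tumors, and 9 of 10 IFNα9 tumors were, the exception being IFNα9 tumor 9, which lay below GFP tumor 9. Among IFNα9 tumors 5 of 10 were below every IFNα4 tumor. Ccl3 rose 5.54-fold in IFNα4 tumors (log2 fold change 2.47 ± 0.22, adjusted p = 6.77e-11 by edgeR) and 3.21-fold in IFNα9 tumors (1.68 ± 0.22, adjusted p = 2.02e-07). It was 1.72-fold lower in IFNα9 than in IFNα4 tumors (-0.79 ± 0.21, adjusted p = 0.00743). Without GFP tumor 9 the log2 fold changes against GFP were 2.73 and 1.95, and without GFP tumor 7 they were 2.43 and 1.63.

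Ccl5 was the most abundant of the 3 ligands in every type, also per kilobase of exon. In GFP tumors it ran from 2.14 CPM in tumor 7 to 13.5 CPM in tumor 5 with a median of 6.45 (7.02 ± 3.28). In IFNα4 tumors it ran from 24.2 to 63.2 CPM with a median of 43.5 (43.0 ± 10.8). In IFNα9 tumors it ran from 11.9 to 42.9 CPM with a median of 22.9 (25.5 ± 9.03). All IFNα4 tumors were above all GFP tumors, 9 of 10 IFNα9 tumors were above all GFP tumors, and 6 of 10 IFNα9 tumors were below all IFNα4 tumors. Ccl5 rose 6.08-fold in IFNα4 tumors (log2 fold change 2.60 ± 0.24, adjusted p = 1.91e-10 by edgeR) and 3.61-fold in IFNα9 tumors (1.85 ± 0.24, adjusted p = 2.20e-07). It was 1.69-fold lower in IFNα9 than in IFNα4 tumors (-0.75 ± 0.23, adjusted p = 0.0193). Without GFP tumor 7 the log2 fold changes against GFP were 2.52 and 1.75, and those of Ccl4 were 3.75 and 1.94.

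The receptor Ccr1 was readily detected in controls, and its levels overlapped between all types. In GFP tumors it ran from 9.19 CPM in tumor 7 to 31.5 CPM with a median of 23.5 (22.1 ± 7.08), in IFNα4 tumors from 14.7 to 40.1 CPM with a median of 30.5 (28.9 ± 7.56), and in IFNα9 tumors from 20.6 to 48.6 CPM with a median of 35.2 (34.0 ± 8.46). The types overlapped in every comparison, with 5 of 10 IFNα4 and 6 of 10 IFNα9 tumors above every GFP tumor. The log2 fold change was 0.62 ± 0.19 in IFNα9 against GFP tumors (adjusted p = 0.00590 by edgeR). It was 0.38 ± 0.19 in IFNα4 against GFP tumors (adjusted p = 0.0685) and 0.23 ± 0.18 for IFNα9 minus IFNα4 (adjusted p = 0.423), neither of which passed. The IFNα4 difference passed when libraries were scaled by their totals (0.44, adjusted p = 0.0427 by edgeR). It also passed when the replicate number was added to the fit (0.41, adjusted p = 0.0419 by edgeR). Without GFP tumor 7 the differences of IFNα4 and IFNα9 from GFP tumors were 0.31 (adjusted p = 0.1095) and 0.54 (adjusted p = 0.00955). The effect of IFNα9 and that of IFNα4 on Ccr1 were therefore not shown to differ.

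**Figure D2:**
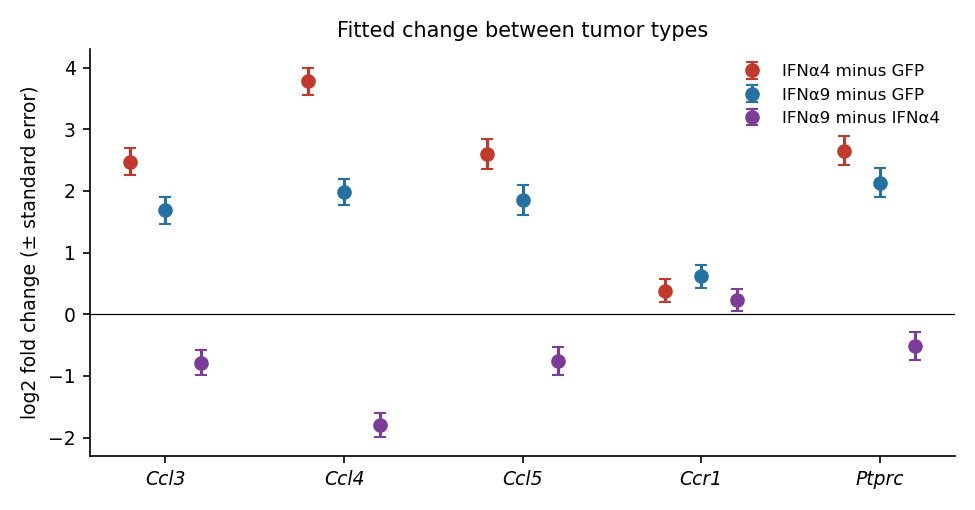
Log2 fold change of Ccl3, Ccl4, Ccl5, Ccr1 and Ptprc in the 3 comparisons of tumor types, with standard errors as bars. Ccl4 had the largest rise of the 5 genes in IFNα4 against GFP tumors (3.78) and the largest fall in IFNα9 against IFNα4 tumors (-1.80), and Ccr1 stayed between 0.23 and 0.62.

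These counts stand against a broad background, since most genes differed between tumor types. Of the 4 members, 3 were DEGs in IFNα4 against GFP tumors and 4 in IFNα9 against GFP tumors, where 65.4% and 55.7% of all genes tested were DEGs. All of these members were higher, as were 31.3% of all genes in IFNα4 and 26.9% in IFNα9 tumors. Full separation of the 20 tumors was less common. It held for 3 of the 4 members in IFNα4 above GFP tumors, against 8.5% of all genes, and for Ccl4 alone of the 4 in IFNα9 above GFP tumors, against 4.44%. Between the IFNα types 17.8% of all genes were DEGs and 7.25% were lower in IFNα9 tumors, as were the 3 ligands. In a fit of only these 20 tumors the DEGs numbered 4338 instead of 2833, 1975 of them lower instead of 1154. Full separation with IFNα9 below IFNα4 tumors held for Ccl4 and for 0.741% of all genes.

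Per kilobase of exon, on which genes can be compared with each other, the order of the 4 members changed between types. In GFP tumors Ccr1 (7.81 ± 2.50 CPM per kb) and Ccl5 (7.31 ± 3.42) were at the top, apart by less than their SDs, followed by Ccl3 (4.72 ± 2.79) and Ccl4 (2.76 ± 1.00), also apart by less than the SD of Ccl3. In IFNα4 tumors the order was Ccl5 (44.7 ± 11.2), Ccl4 (38.1 ± 14.0), Ccl3 (26.2 ± 6.58) and Ccr1 (10.2 ± 2.67). Only the step from Ccl3 down to Ccr1 was larger than the SDs of both neighbours there on this length. In IFNα9 tumors the order was Ccl5 (26.5 ± 9.40), Ccl3 (15.2 ± 3.05), Ccr1 (12.0 ± 2.99) and Ccl4 (11.0 ± 2.24), with Ccr1 and Ccl4 apart by less than their SDs. Ccl4, last in GFP tumors and IFNα9 tumors, was thus second in IFNα4 tumors. These levels divide by all annotated exons of a gene together, 960 bases for Ccl5, and its place depends on that length. Over its coding transcript of 532 bases, a length chosen after seeing the data, Ccl5 stood at 13.2 ± 6.17 CPM per kb in GFP, 80.7 ± 20.2 in IFNα4 and 47.9 ± 17.0 in IFNα9 tumors, which puts it above Ccr1 in GFP tumors too, by less than its own SD, and above Ccl4 in IFNα4 tumors by more than both SDs.

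Whether the ligands changed by unequal amounts was tested within tumors, as the log2 CPM of one gene minus that of another, in which the scaling of the library cancels apart from the prior count of 2. Across 7 such ratios and 3 comparisons, 21 two-sided permutation tests with 100000 resamples were adjusted together. Ccl4 minus Ccl3 was -0.88 ± 0.50 (SD, n = 10) in GFP, 0.28 ± 0.37 in IFNα4 and -0.67 ± 0.29 in IFNα9 tumors. The ratio of Ccl4 to Ccl3 was therefore 2.23-fold higher in IFNα4 than in GFP tumors (adjusted permutation p = 2.52e-04), with 9 of 10 IFNα4 tumors above every GFP tumor. It was 1.93-fold lower in IFNα9 than in IFNα4 tumors (adjusted permutation p = 2.1e-04), and its difference between IFNα9 and GFP tumors, 0.21, did not pass (adjusted permutation p = 0.481). The ratio of Ccl5 to Ccl4 moved the other way, 1.98-fold lower in IFNα4 than in GFP tumors (adjusted permutation p = 7.2e-04) and 1.90-fold higher in IFNα9 than in IFNα4 tumors (adjusted permutation p = 2.8e-04). Its difference between IFNα9 and GFP tumors, -0.06, did not pass (adjusted permutation p = 0.861).

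The ratio of Ccl5 to Ccl3 did not differ between types beyond the spread. Ccl5 minus Ccl3 was 0.92 ± 0.77 in GFP, 1.09 ± 0.17 in IFNα4 and 1.07 ± 0.51 in IFNα9 tumors. The differences between types were 0.17, 0.14 and -0.02 on the log2 scale for IFNα4 minus GFP, IFNα9 minus GFP and IFNα9 minus IFNα4, and none passed (adjusted permutation p = 0.641, 0.735 and 0.902). With 1 tumor left out, the difference of IFNα4 from GFP tumors ran from 0.059 to 0.34 and that of IFNα9 from 0.035 to 0.31. The spread of this ratio was narrowest in IFNα4 tumors, from 0.84 to 1.41, against -0.06 to 2.45 in GFP tumors.

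**Figure D3:**
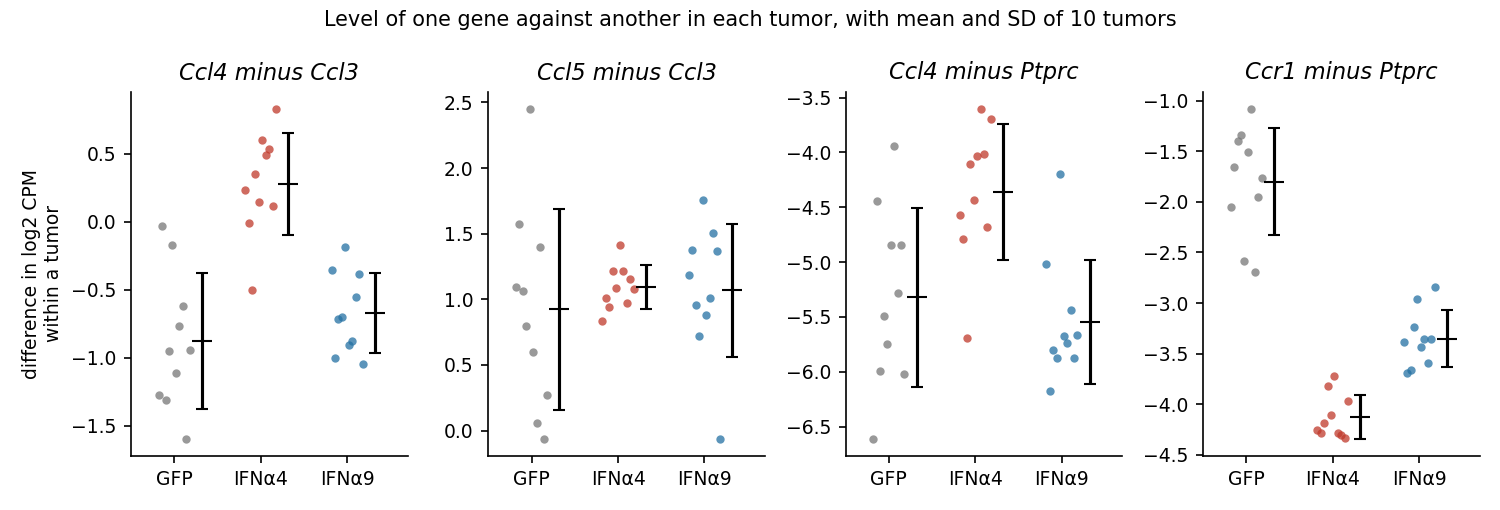
Difference in log2 CPM between a pair of genes within each tumor (points), with the mean and SD of the 10 tumors of each type (bars). Ccl4 minus Ccl3 and Ccl4 minus Ptprc are highest in IFNα4 tumors, Ccl5 minus Ccl3 overlaps widely between the 3 types, and Ccr1 minus Ptprc does not overlap between any types.

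Each member was also set against Ptprc, a gene of all leukocytes, in the same tumor. It rose from 80.6 ± 29.5 CPM in GFP tumors to 507 ± 140 in IFNα4 tumors (log2 fold change 2.65) and 354 ± 106 in IFNα9 tumors (2.14). In RNA of whole tumors, fewer cells of a type and less RNA per cell cannot be told apart. Ccl3 and Ccl5 did not differ from Ptprc beyond the spread. Their log2 ratios to Ptprc differed between types by -0.43 to -0.03, with the smallest adjusted permutation p at 0.305. Ccl4 relative to Ptprc was 1.94-fold higher in IFNα4 than in GFP tumors (adjusted permutation p = 0.0220, 2 of 10 IFNα4 tumors above every GFP tumor) and 2.27-fold lower in IFNα9 than in IFNα4 tumors (adjusted permutation p = 0.00223, 5 of 10 below every IFNα4 tumor). Between IFNα9 and GFP tumors it differed by -0.22 (adjusted permutation p = 0.641). Without GFP tumor 7, the lowest in Ptprc, the differences from GFP tumors were 1.11 in IFNα4 (adjusted permutation p = 0.00527) and -0.071 in IFNα9 tumors for Ccl4, -0.057 and -0.29 for Ccl3, and 0.015 and -0.24 for Ccl5.

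Ccr1 stood apart from the ligands on this measure. Ccr1 minus Ptprc was -1.80 ± 0.53 in GFP, -4.13 ± 0.22 in IFNα4 and -3.35 ± 0.28 in IFNα9 tumors, with no overlap between any pair of types. Relative to Ptprc, Ccr1 was 5.01-fold lower in IFNα4 and 2.92-fold lower in IFNα9 than in GFP tumors, and 1.71-fold higher in IFNα9 than in IFNα4 tumors (adjusted permutation p = 2.1e-04 for each). Ptprc rose by 2.65 and 2.14 on the log2 scale while Ccr1 had 0.38 and 0.62, and the ratio shows this unequal change, not a fall of Ccr1 itself. Without GFP tumor 7 the differences against GFP tumors were -2.24 and -1.47.

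Marker genes of the cell types that make these ligands or carry the receptor moved between types as well, and their part in the results above was not tested. All 9 NK cell genes were higher in IFNα4 and in IFNα9 than in GFP tumors (median log2 fold changes 4.43 and 3.81), and their summed level ran from 5.98 to 35.3 CPM in GFP, 136 to 458 in IFNα4 and 73.2 to 268 in IFNα9 tumors. Of 10 T cell genes, 10 and 9 were higher (medians 2.53 and 2.15), with summed levels of 6.33 to 69.3, 93.1 to 188 and 36.1 to 138 CPM. Of 7 monocyte genes, several of which interferon also induces, 7 and 6 were higher (medians 2.41 and 1.77), with summed levels of 148 to 457, 1302 to 2469 and 650 to 1494 CPM. Over all genes 31.3% were higher and 34.1% lower in IFNα4 tumors, and 26.9% and 28.9% in IFNα9 tumors, and the share of macrophage genes that were higher was near this background. Of 9 macrophage genes 3 were higher and 2 lower in IFNα4 tumors (median -0.28), 3 were higher and none lower in IFNα9 tumors (median -0.05), and the summed level ran from 468 to 2077, 1138 to 1903 and 1055 to 1963 CPM. Of 6 neutrophil genes 4 were higher and 2 lower in IFNα4 tumors and 2 were higher and 2 lower in IFNα9 tumors, at summed levels of 26.6 to 97.9, 129 to 185 and 56.0 to 134 CPM. No tested marker of these lists was at 0 throughout a type.

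Between the IFNα types the marker lists moved in both directions, where 10.5% of all genes were higher and 7.25% lower in IFNα9 tumors. In IFNα9 against IFNα4 tumors 5 of 9 NK cell genes, 6 of 7 monocyte genes and 4 of 6 neutrophil genes were lower, with medians of -0.63, -0.89 and -0.97. None of the 10 T cell genes was a DEG (median -0.39), and of 9 macrophage genes 1 was higher and 1 lower. In the same comparison 4 of 5 skeletal muscle genes (median -0.96), 1 of 4 keratinocyte genes and 1 of 2 B cell genes were lower, 3 of 4 melanocyte genes were higher (median 0.56), 1 of 9 dendritic cell genes was higher and 1 lower, and no erythroid, mast cell or basophil gene passed. Among the other lists, to be read against the 31.3% and 34.1% of all genes higher and lower in IFNα4 and the 26.9% and 28.9% in IFNα9 against GFP tumors, 5 of 9 dendritic cell genes were higher in IFNα4 than in GFP tumors and 6 were higher and 1 lower in IFNα9 tumors. Of 4 mast cell and basophil genes 1 was higher in IFNα4 tumors and 1 higher and 1 lower in IFNα9 tumors, and of 2 B cell genes tested 1 was higher in each. All 4 melanocyte genes and all 5 erythroid genes were lower in both IFNα types than in GFP tumors. Skeletal muscle genes, which come with the dissected tissue, did not pass in IFNα4 tumors (0 of 5) and were lower in IFNα9 tumors (3 of 5), and of 4 keratinocyte genes 2 were higher in IFNα4 and 1 lower in IFNα9 tumors. The mast cell and basophil and the keratinocyte lists held only 4 tested genes each, too few to tell whether their counts differ from the shares of all genes.

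Few pairs of members were correlated past the test among tumors of the same type. Over 18 correlations of log2 CPM (6 pairs of members in 3 types, n = 10 each, p-values adjusted over the 18), only that of Ccl3 with Ccl5 in IFNα4 tumors passed by Pearson's r (r = 0.90, adjusted permutation p = 0.00846; rho = 0.87, adjusted permutation p = 0.0221). It was 0.87 without the 2 tumors farthest from the median of Ccl3. In the same tumors Ccl4 and Ccl5 passed by Spearman's rho (0.87, adjusted permutation p = 0.0221) but not by r (0.78, adjusted permutation p = 0.0660; 0.87 without 2 tumors). Ccl4 with Ccl5 gave r = 0.68 in GFP tumors and 0.71 in IFNα9 tumors (adjusted permutation p = 0.0951 for both). Ccl3 with Ccl4 gave r = 0.64 in GFP, 0.71 in IFNα4 and 0.53 in IFNα9 tumors, none past the test, and 0.28, 0.71 and 0.26 without 2 tumors. Ccl3 with Ccl5 gave 0.40 in GFP and 0.35 in IFNα9 tumors, and the difference from IFNα4 tumors was not tested. No pair with Ccr1 passed, and its r with the ligands ran from -0.25 to 0.66. Without 2 tumors it ran from -0.59 to 0.70, and single pairs moved far. Ccl3 with Ccr1 in IFNα4 tumors went from 0.66 to 0.12. Ccl5 with Ccr1 in GFP tumors went from 0.25 to -0.59, with rho = -0.26 over all 10 tumors.

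**Figure D4:**
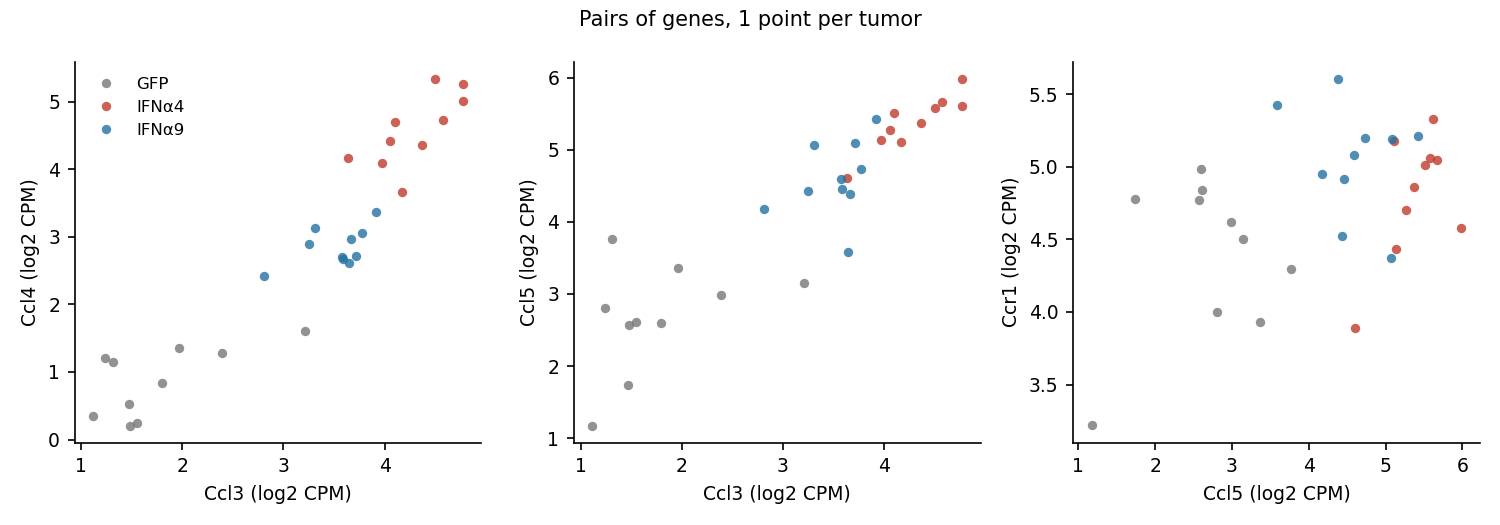
Log2 CPM of Ccl4 against Ccl3, of Ccl5 against Ccl3 and of Ccr1 against Ccl5, with 1 point per tumor coloured by type. Ccl3 and Ccl5 lie close to a line in IFNα4 tumors (r = 0.90). Ccr1 with Ccl5 gave r = 0.25, 0.58 and -0.25 in GFP, IFNα4 and IFNα9 tumors, none past the test. Without the 2 tumors farthest from the median of Ccl5 these were -0.59, 0.56 and -0.21.

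The spread of the members between tumors of 1 type was mostly above that of the typical gene. The SD of log2 CPM of Ccl5 was 0.76 in GFP, 0.38 in IFNα4 and 0.52 in IFNα9 tumors, against medians over all genes of 0.41, 0.25 and 0.28. Ccl4 in IFNα4 tumors, at 0.53, was more variable than 90.1% of the genes tested, whereas in IFNα9 tumors, at 0.28, it was at the median. These SDs include counting error, which is larger for scarce transcripts.

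The genes most like each member were found by Pearson's r of log2 CPM over the 30 tumors after the mean of each type had been subtracted, as a description without a test, since tumors share their makeup and library scaling. For Ccl5 the top 5 were H2-T23 (r = 0.88), Trafd1, H2-D1, Tap1 and Tapbp (0.88 each). Of these, H2-T23 and H2-D1 encode MHC class I heavy chains, and Tap1 and Tapbp act in the supply and loading of their peptides. For Ccr1 they were Tlr13 (0.86), Lair1 (0.85), Trim30b (0.84), Ccr2 (0.84) and Eloa (0.83), of which Tlr13 is an endosomal sensor of bacterial RNA, Lair1 an inhibitory collagen receptor of leukocytes and Ccr2 the receptor that brings monocytes into tissue. For Ccl3 they were P2rx4 (0.75), an ATP-gated channel, Lgmn (0.72), a lysosomal protease, B430306N03Rik (0.72), Adgre5 (0.71), which encodes CD97, and Slc11a1 (0.71), a phagosomal metal transporter. For Ccl4 they were Sema4d (0.78), Chmp4b (0.78), Daxx (0.77), Nsfl1c (0.74) and Lin37 (0.73), none of them a chemokine gene. Over all 30 tumors Ccr1 followed Ptprc most closely within types (r = 0.77, rank 51), ahead of Ccl5 and Ccl3 (0.51 and 0.44) and Ccl4 (0.16). GFP tumor 7 was included, the lowest of all tumors in Ptprc (19.5 CPM), Ccl5 (2.14 CPM) and Ccr1 (9.19 CPM). These r values were not computed without it, so the order of Ccl5 and Ccl3 is not settled.

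Other CC chemokine ligands did not move as 1 group. Of 15 further ligand genes tested, 7 were higher and 4 lower in IFNα4 than in GFP tumors (median log2 fold change 0.36, all genes 0.01), and 9 were higher and 1 lower in IFNα9 tumors (median 0.85, all genes 0.00). Of all genes 31.3% were higher and 34.1% lower in IFNα4, and 26.9% higher and 28.9% lower in IFNα9 than in GFP tumors, so the 4 of 15 that fell in IFNα4 tumors were near that background. The IFNα9 split depends on the scaling, with 4281 genes higher and 4595 lower by TMM and 5051 and 3610 by library totals. The rises in IFNα4 tumors were led by Ccl11 (eotaxin; 2.84 ± 0.20, adjusted p = 3.23e-13 by edgeR), Ccl7 (2.27 ± 0.16) and Ccl12 (2.17 ± 0.19), and both Ccl7 and Ccl12 attract monocytes. Ccl24 (eotaxin-2; -2.19 ± 0.39), Ccl6 (-1.67 ± 0.17) and Ccl8 (-1.61 ± 0.21) fell most. Of all 18 CC ligand genes tested, Ccl4 had the largest rise in IFNα4 tumors, and in IFNα9 tumors it was level with Ccl11 within the standard error (1.98 ± 0.21 and 1.97 ± 0.19). In IFNα9 against GFP tumors the largest further rises were those of Ccl11 (1.97 ± 0.19), Ccl20 (1.68 ± 0.31) and Ccl17 (1.60 ± 0.31), which attract eosinophils, Ccr6-bearing and Ccr4-bearing lymphocytes, and the 1 fall was that of Ccl8 (-0.80 ± 0.21). Ccl20 and Ccl17 had low means of 1.94 and 0.901 CPM in GFP tumors.

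Between the IFNα types, 5 of these 15 ligands were higher and 4 lower in IFNα9 tumors (median 0.24, all genes -0.01), against 10.5% of all genes higher and 7.25% lower. Ccl7 (-0.93 ± 0.16), Ccl2 (-0.90 ± 0.15) and Ccl11 (-0.87 ± 0.18) fell most among them. On the same scale Ccl3 and Ccl5 had -0.79 and -0.75, and Ccl4 had -1.80. Ccl17 (2.44 ± 0.32), Ccl24 (1.43 ± 0.39) and Ccl6 (1.39 ± 0.16) rose most. Ccl17 and Ccl24 rose from low levels, with means of 0.50 and 1.16 CPM in IFNα4 tumors, against 144 CPM for Ccl6.

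**Figure D5:**
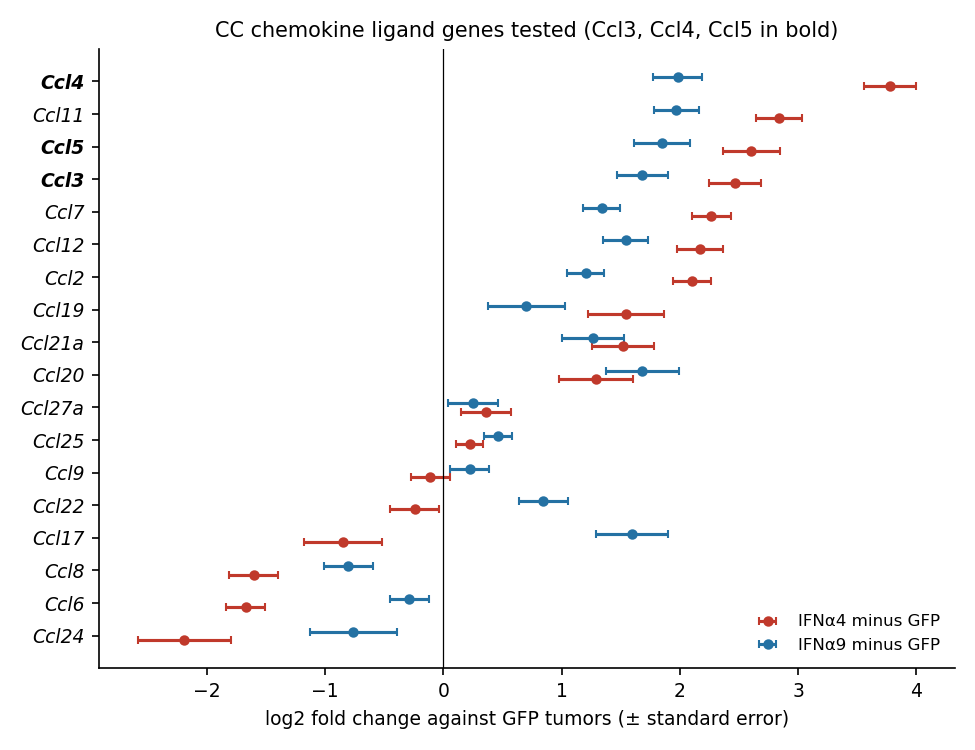
Log2 fold change against GFP tumors, with standard errors as bars, of the 18 CC chemokine ligand genes tested, ordered by the change in IFNα4 tumors with Ccl3, Ccl4 and Ccl5 in bold. Ccl4 is at the top at 3.78 in IFNα4 and 1.98 in IFNα9 tumors, and Ccl24, Ccl6 and Ccl8 are at the bottom with falls in IFNα4 tumors.

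Genes beside the members on the chromosome, looked up after the first values were seen, moved in both directions beside the ligands. In the stretch from Taf15 to Wfdc21 on chromosome 11, 9 of 15 annotated genes other than the 3 ligands were tested, 1 of them higher and 4 lower in IFNα4 than in GFP tumors and 2 higher and 1 lower in IFNα9 tumors. In IFNα9 against IFNα4 tumors, where the ligands were lower, 4 of the 9 were higher and none was lower. Over all genes the shares higher were 31.3%, 26.9% and 10.5% in these comparisons, and the shares lower were 34.1%, 28.9% and 7.25%. The 4 of 9 that were lower in IFNα4 than in GFP tumors were thus not far from the background. Ccl9, a macrophage chemokine between Ccl5 and Ccl3, had log2 fold changes of -0.11 ± 0.16 and 0.22 ± 0.16 against GFP tumors, neither past the test, at a mean of 232 CPM. Ccl6, its neighbour, fell by 1.67 in IFNα4 tumors but had -0.29 ± 0.16 in IFNα9 tumors (adjusted p = 0.129 by edgeR). Wfdc17 on the other side of Ccl4 fell in both (-1.42 and -0.73), and Heatr9 beside Ccl5 rose in both (3.12 and 2.71) at a mean of only 0.714 CPM. Beside Ccr1 on chromosome 9 all 3 genes tested were higher in both IFNα types than in GFP tumors. Among them Ccr3, the eotaxin receptor, rose by 2.48 ± 0.35 and 1.62 ± 0.35, and Ccr2 by 1.91 ± 0.20 and 1.65 ± 0.20.

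Chemokine receptors and scavengers other than Ccr1 were mostly higher in IFNα tumors. Of 19 tested, 16 were higher in IFNα4 (median log2 fold change 1.08) and 14 in IFNα9 (median 0.74) than in GFP tumors, against 31.3% and 26.9% of all genes, and none was lower. The changes of Ccr1, 0.38 and 0.62, lay below both medians. Ccrl2, a receptor that binds chemerin without signalling, rose by 2.27 ± 0.21 in IFNα4 tumors and was lower in IFNα9 than in IFNα4 tumors (-0.61 ± 0.20). In IFNα9 tumors Cxcr6, a receptor of tissue T cells and NK cells, rose by 2.19 ± 0.26, and Xcr1, which marks cross-presenting dendritic cells, by 2.08 ± 0.24. Between the IFNα types 21.1% of the 19 were DEGs, near the 17.8% of all genes. They were 1 that was higher and 3 that were lower in IFNα9 tumors, namely Xcr1 (0.69 ± 0.22) on one side and Cxcr4 (-0.88 ± 0.17), Ccr9 (-0.71 ± 0.20) and Ccrl2 on the other.

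Ackr2, the scavenger that removes inflammatory CC chemokines, was named after its values were seen. It rose by 0.84 ± 0.26 in IFNα4 tumors (adjusted p = 0.00496 by edgeR) and by 0.74 ± 0.26 in IFNα9 tumors (adjusted p = 0.0149), less than any of the 3 ligands.

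Downstream of the receptors, 12 of 16 signalling genes were higher and 2 lower in IFNα4 tumors (median 1.19), and 11 were higher and 2 lower in IFNα9 tumors (median 0.72), against 31.3% and 26.9% of all genes higher and 34.1% and 28.9% lower. Rgs1, which switches off G proteins of chemokine receptors, rose by 2.73 ± 0.23 and 1.60 ± 0.23 and was lower in IFNα9 than in IFNα4 tumors (-1.13 ± 0.22, adjusted p = 4.88e-04 by edgeR). Plcb2, a phospholipase C of blood cells, rose by 1.82 ± 0.19 and 1.61 ± 0.19. Between the IFNα types 5 of the 16 were lower in IFNα9 tumors, among them Pik3r5, a subunit of the PI3-kinase that G proteins activate (-0.75 ± 0.20), and none was higher, against 7.25% of all genes lower and 10.5% higher.

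Of 7 genes that bind or cut the ligands, 3 were higher and 1 lower in each IFNα type than in GFP tumors, so that 57.1% were DEGs, near the 65.4% and 55.7% of all genes. Srgn, the core protein of the proteoglycan that holds chemokines in granules, rose by 1.18 ± 0.17 and 1.00 ± 0.17, and Mmp9, a gelatinase, fell by 1.03 and 0.86 on the log2 scale. In IFNα9 against IFNα4 tumors 14.3% of the list were DEGs, not above the 17.8% of all genes. The 1 gene was Mmp12, the macrophage elastase, higher in IFNα9 tumors by 0.81 ± 0.24 on the log2 scale.

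Of 12 inducers and transcription factors of these ligands, 10 were higher in IFNα4 (median 1.17) and 8 in IFNα9 (median 0.71) than in GFP tumors, against 31.3% and 26.9% of all genes, and none was lower. Tbx21 (T-bet, the factor of type 1 lymphocytes) rose by 4.35 ± 0.32 and 3.43 ± 0.31, from a mean of only 0.427 CPM in GFP tumors. Irf7, which interferon induces, rose by 3.44 ± 0.21 in IFNα4 tumors and was lower in IFNα9 than in IFNα4 tumors, with no overlap between the 20 tumors (-0.96 ± 0.19, adjusted p = 7.38e-04 by edgeR). Irf1 rose by 2.52 ± 0.24 in IFNα9 tumors and was the 1 gene of the 12 that was higher there than in IFNα4 tumors. Tnf, a cytokine that induces Ccl3, Ccl4 and Ccl5, was lower in IFNα9 than in IFNα4 tumors (-0.95 ± 0.19, adjusted p = 8.79e-04), as were 4 others of the list, against 10.5% of all genes higher and 7.25% lower between the IFNα types.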

How the data were processed

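RNA of 30 whole tumors, 10 per type, was measured by bulk RNA-seq. The authors made stranded mRNA libraries, sequenced 50-base single-end reads, checked them with FastQC 0.11.3, aligned them with HISAT2 2.0.4 (mm10 in the submitters' processing notes, another name in the methods) and counted them per gene. The deposited values are counts, not normalized. The strand setting of the counting and the treatment of multi-mapped reads are not given in the sources used here. Symbols and coordinates came from GENCODE M21 (GRCm38), which held 39495 of the identifiers and lacked 181.

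The test was run with edgeR 4.0.16 under R 4.3.3: a filter at a mean of 10 counts, TMM, 1 quasi-likelihood fit of all 30 tumors, Benjamini-Hochberg adjustment, DEGs at an adjusted p under 0.05. CPM values use the TMM-scaled totals, and log2 CPM took a prior count of 2. The common biological coefficient of variation was 0.281. Permutation tests and correlations used Python 3.11.15 with pandas 2.3.3 and numpy 2.4.6, coding sequences were aligned with Biopython 1.88, and plots were drawn with matplotlib 3.10.9. Intervals were not derived from single counts, since PCR duplicates carry no molecular identifiers.

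The members and gene lists were chosen with earlier results of these data known. Of the ligand and receptor lists, the 3 largest rises and falls among DEGs of each comparison are named, and of the signalling, handling and inducer lists the 2 largest changes, beside 5 genes most like each member. Genes outside this rule are marked in the text or serve as neighbours or context. Lists are described by counts and medians, without a set test. Some genes of the lists and 1 sequence are not reported here. Alternatives were DESeq2's size factors, library totals, DESeq2 1.42.0, filterByExpr, no filter, a prior count of 0.5, only the 20 tumors compared, the replicate number as a block, and each tumor left out.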

Additional observations from a re-analysis of the deposited data

How the results depend on the processing

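The rises of Ccl3, Ccl4 and Ccl5 against GFP tumors, their lower levels in IFNα9 than in IFNα4 tumors and the rise of Ccr1 in IFNα9 tumors kept their direction and passed the test under all 7 alternative fits and all 30 fits with 1 tumor left out. Ccl5 between the IFNα types came closest to the threshold, with log2 fold changes of -0.87 to -0.67 and an adjusted p of up to 0.0425 (edgeR) when 1 tumor was left out. Ccr1 in IFNα4 against GFP tumors depended on the setting. It passed with library totals (0.44, adjusted p = 0.0427) and with the replicate number as a block (0.41, adjusted p = 0.0419), and ran from 0.31 to 0.46 when 1 tumor was left out, passing without GFP tumor 3 (adjusted p = 0.0487), GFP tumor 4 (0.0362) or IFNα4 tumor 8 (0.0247). Over the 7 alternatives its adjusted p ran from 0.0419 to 0.0884. The cause was not tested.

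Replicate numbers did not pair the tumors: 2, 2 and 0 of 10 same-numbered pairs had deviations correlated over 0.1 in the 3 comparisons, and 1, 1 and 0 tumors correlated best with their own number. The block gave 10249, 8626 and 2538 DEGs over all genes, against 10412, 8876 and 2833 without it. Library totals moved the split of all DEGs in IFNα9 against GFP tumors from 4281 higher and 4595 lower to 5051 and 3610. For IFNα9 against IFNα4 tumors a fit of only the 20 tumors compared gave 4338 DEGs, and leaving out 1 tumor gave 2098 to 3797.

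With library totals the correlation of Ccl4 with Ccl5 passed in GFP tumors (r = 0.75, adjusted permutation p = 0.0409) and in IFNα4 tumors (r = 0.78, adjusted permutation p = 0.0409), and that of Ccl4 with Ccr1 in GFP tumors changed sign without passing (0.12, against -0.11). With 1 tumor left out, ratio differences that did not pass changed sign in ranges of -0.17 to 0.048 (Ccl5 to Ptprc, IFNα4 minus GFP), -0.17 to 0.031 (Ccl5 to Ccl4, IFNα9 minus GFP) and -0.10 to 0.10 (Ccl5 to Ccl3, IFNα9 minus IFNα4). Ccl3 to Ptprc for IFNα9 minus IFNα4 ran from -0.33 to -0.16 and passed without IFNα9 tumor 5 (adjusted permutation p = 0.0447). The other ratio results kept their direction and side of the threshold. Ccl4 in GFP tumors rests on 13 to 45 counts per tumor, the fewest of the 4 members.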

Other observations

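Within the IFNα types, some but not all of the tumors at the ends of the ligand levels were also at the ends of marker lists. IFNα9 tumor 8 was the highest of its type for Ccl3 (15.0 CPM), Ccl4 (10.2 CPM) and Ccl5 (42.9 CPM), and also for the mean log2 CPM of the NK cell, T cell, monocyte and chemokine receptor genes. IFNα4 tumor 8 was the lowest of its type for Ccl3 (12.3 CPM), Ccl5 (24.2 CPM), Ccr1 (14.7 CPM) and Ptprc (292 CPM), and for the NK cell, monocyte, macrophage and neutrophil genes. IFNα4 tumor 8 was also the highest for the skeletal muscle genes. IFNα9 tumor 10, the lowest of its type for Ccl5 (11.9 CPM), was the lowest for the T cell, macrophage, dendritic cell, receptor and inducer genes and the highest for the melanocyte genes. IFNα9 tumor 9, the lowest of its type for Ccl3 (6.90 CPM) and Ccl4 (5.25 CPM), was at the end of none of the lists, and IFNα9 tumor 5, the lowest for the NK cell, monocyte and neutrophil genes and Ptprc, had the second highest Ccl4 (8.65 CPM) and the highest skeletal muscle genes.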
